A study of Mus musculus with 8 samples.

Results

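The inner mitochondrial membrane carries the respiratory chain, and most of its protein subunits are encoded in the nucleus. The genes described here are those of the count table whose names match the nuclear-encoded subunits of complexes I to IV: Nduf genes of the a, b, c, s and v series, Sdha to Sdhd, all names starting with Uqcr, and the genes from Cox5 to Cox8. Assembly factors (Ndufaf genes) and the muscle and brown fat forms Cox8b and Cox7a1 were left out by the rule. The rule found 63 of 24411 gene names: 37 for complex I, 4 for complex II, 8 for complex III and 14 for complex IV. It does not reach Cyc1, Cox4i1, Cox4i2 and Ndufab1, which are given separately.

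RNA came from whole aortas of 8 mice of the genotype ApoE(-/-), which lack apolipoprotein E. All were homozygous for a transgene, caIKK2(+/+), in which a loxP-flanked STOP cassette silences a constitutively active IKK2 (a kinase that activates NF-κB) and a co-translated EGFP. The 5 caIKK2EC mice also carried 1 copy of BMX-CreERT2, a tamoxifen-inducible Cre driven by the arterial endothelial gene Bmx, and the 3 Control mice were littermates without Cre. Both groups received tamoxifen (1 mg per 20 g of body weight on 5 days) and a Western-type diet for 12 weeks, and were 18 or 19 weeks old. Cre is directed to arterial endothelium, while the RNA represents the whole vessel and the tissue attached to it. The sources used here do not give whether IKK2 was activated early or late in disease.

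Complex I takes electrons from NADH, and complex II, which is also the succinate dehydrogenase of the citric acid cycle, takes them from succinate. Complex III passes them to cytochrome c and complex IV to oxygen, and the proton gradient built on the way drives ATP synthase. Subunits of a complex are assembled together, and single subunits without their partners are often unstable. Tissues rich in mitochondria, such as heart and brown fat, hold high levels of these transcripts, and a dissected aorta can carry both tissues.

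Total counts were 23461655 to 30808502 per library. By its column names the count table holds 4 libraries of lane 7 (all Controls with caIKK2EC 1) and 4 of lane 8 (the remaining caIKK2EC), so lane and genotype can be compared only through caIKK2EC 1. Control 3 was the only male. The library of caIKK2EC 1 stood apart from the other caIKK2EC libraries in the subunit genes, and the fold changes of the complexes, the mitochondrial gene lists and most named subunit genes are therefore given with and without it. Of the 63 genes, 60 passed the filter on low counts, and Cox8c, Cox7b2 and Ndufs5 had 0 counts in all 8 libraries.

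Respiratory chain subunits were at lower levels in caIKK2EC 2 to 5 than in the Controls, and at Control levels or above in caIKK2EC 1. No subunit gene passed the quasi-likelihood test of edgeR across all 14679 genes at a Benjamini-Hochberg adjusted p of 0.05, where 0% of all genes passed. Of 60 genes tested, 59 had a log2 fold change (caIKK2EC over Control) below 0, against 52.6% of all genes, and the exception was Ndufa4l2. The median log2 fold change was -0.34 over the 60 genes, a level 0.788 times that of Control, and -0.02 over all genes. At an unadjusted p under 0.05, 16 subunit genes were lower and 0 higher, where 7.47% of all genes were lower and 9.66% higher. The smallest edgeR adjusted p was 0.182, that of Ndufa12. DESeq2 called 0 of the 60 at its adjusted p of 0.05 (5.96% of all genes), with 16 lower at an unadjusted p under 0.05 (8.19% of all genes) and a smallest adjusted p of 0.0954. Of the 60 genes, 0 passed in the authors' deposited table (6.06% of its genes did), where the smallest adjusted p was 0.0970.

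The split between caIKK2EC 1 and the other caIKK2EC libraries ran through all 4 complexes. In each library, the log2 level of every tested gene was set against its Control mean, and the median over the 60 genes was taken. The Controls stood at 0.19, -0.19 and -0.00, while the median was 0.20 in caIKK2EC 1, and -0.68, -0.49, -0.59 and -0.45 in caIKK2EC 2 to 5. The last 4 libraries lay below every Control, and caIKK2EC 1 lay at the level of the highest Control. The summed level of the 60 genes was 7864, 6063 and 6911 CPM (counts scaled to a common effective library size) in Control 1 to 3. It was 8171 CPM in caIKK2EC 1 and 4336, 4873, 4550 and 5111 CPM in caIKK2EC 2 to 5. In caIKK2EC 2, 53 of 60 genes lay below all 3 Controls (22.8% of all genes). That count was 54 in caIKK2EC 3 (27.9% of all genes), 55 in caIKK2EC 4 (27.6%) and 55 in caIKK2EC 5 (25.7%). In caIKK2EC 1, 27 genes lay above all 3 Controls (28.6% of all genes), 2 below (28.2%) and 31 between them.

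**Figure D1:**
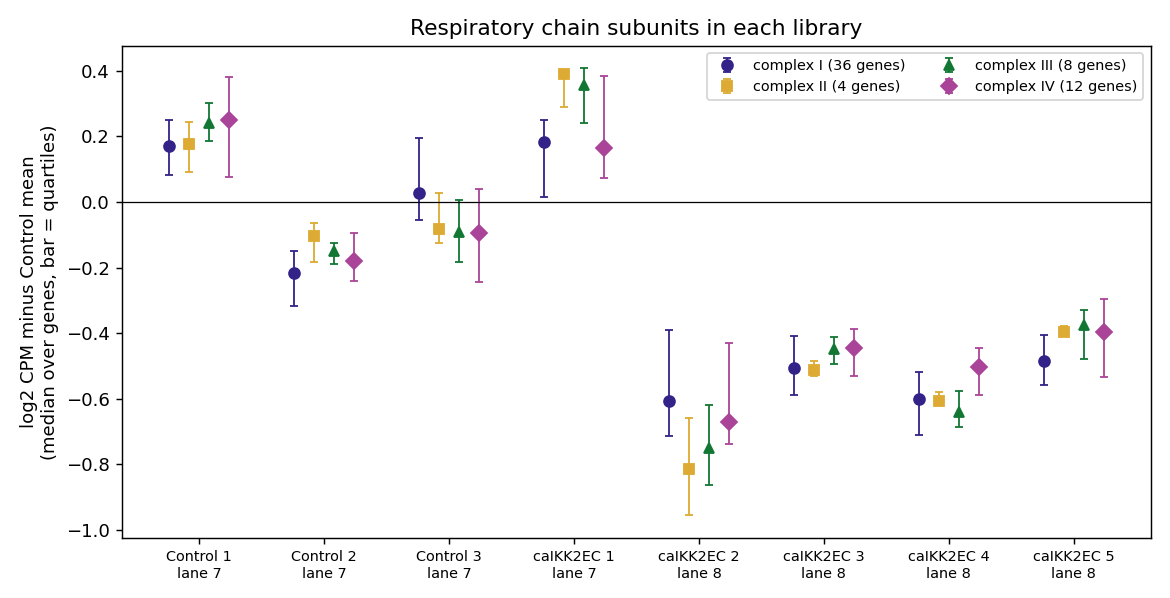
Median over the tested genes of each complex of the log2 CPM minus the Control mean, for each of the 8 libraries (vertical axis, log2 scale), with bars for the quartiles over genes. In caIKK2EC 2 to 5 the medians of all 4 complexes lie between -0.81 and -0.38, and in caIKK2EC 1 between 0.16 and 0.39.

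For 0 of 60 genes did all 5 caIKK2EC libraries lie below all Controls (3.22% of all genes), and for 0 did all lie above (7.01%). For 50 genes, all 4 libraries caIKK2EC 2 to 5 lay below all Controls, against 7.05% of all genes. Without caIKK2EC 1 the median log2 fold change was -0.55. In that fit 54 of 60 genes were lower at an unadjusted edgeR p under 0.05 (8.56% of all genes) and again 0 passed after adjustment (0% of all genes, smallest adjusted p 0.101). That comparison sets lane 8 against lane 7, and in it genotype and lane cannot be told apart. With lane as a covariate, which leaves caIKK2EC 1 against the Controls, the median was 0.19 and 48 of 60 genes were above 0 (48.7% of all genes). The only subunit gene at an unadjusted p under 0.05 in that fit was Ndufa10, with a log2 fold change of 0.39 (edgeR adjusted p = 0.408), where 5.33% of all genes were higher. Among the caIKK2EC mice themselves, 56 of 60 genes were lower in each of caIKK2EC 2 to 5 than in caIKK2EC 1, with a median difference of -0.71 on the log2 scale. For this count the share over all genes was not computed, and caIKK2EC 1 also differs from caIKK2EC 2 to 5 in lane. The SD over the mean was 26.5% at the median subunit gene in caIKK2EC and 9.49% in caIKK2EC 2 to 5, against 15.7% and 14% at the median of all genes.

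**Figure D2:**
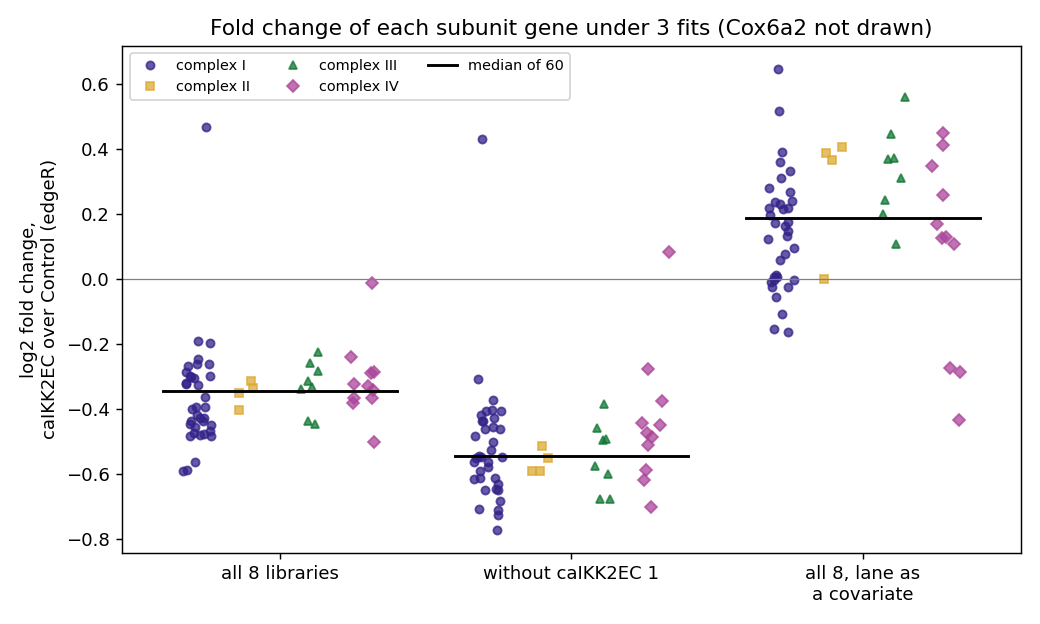
Log2 fold change of each tested subunit gene except Cox6a2 (points, by complex) in 3 edgeR fits, with a bar at the median of the 60 genes. The median is -0.34 with all 8 libraries, -0.55 without caIKK2EC 1 and 0.19 with lane as a covariate.

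Markers of tissue around the aorta also differed between the libraries. The 14 brown adipocyte markers, among them Ucp1, the uncoupling protein that lets brown fat produce heat, summed to 1481 to 1692 CPM in the Controls. Library caIKK2EC 1 held 2743 CPM, and caIKK2EC 2 to 5 held 272, 892, 693 and 978 CPM. Of the 13 that were tested 10 had a log2 fold change below 0 (52.6% of all genes), and 0 passed (0% of all genes). Ucp1 was at 623, 782 and 844 CPM in Control 1 to 3, at 1512 CPM in caIKK2EC 1 and at 37.5, 381.6, 247 and 404 CPM in caIKK2EC 2 to 5. The library with the least Ucp1, caIKK2EC 2, also had the lowest level of 32 of the 60 subunit genes. Cox8b and Cox7a1, the forms left out by the rule, were also lowest in caIKK2EC 2, at 12.0 and 4.21 CPM, against 153 and 68.4 CPM in caIKK2EC 1. Cox7a1 was highest in Control 1, at 72.5 CPM. Other genes of the list were ordered differently: Prdm16, a regulator of brown fat identity, was lowest in caIKK2EC 1 (37.9 CPM, against 52.8 to 56.3 CPM in caIKK2EC 2 to 5), and Dio2, a thyroid hormone deiodinase, was at 94.6 to 161 CPM in caIKK2EC 2 to 5, within or above the Control range of 76.4 to 155 CPM. Ucp1 alone made up 1512 of the 2743 CPM in caIKK2EC 1. The 12 general adipocyte markers summed to 4722 to 6426 CPM in the Controls, 10048 CPM in caIKK2EC 1 and 2889 to 4967 CPM in caIKK2EC 2 to 5. The 15 cardiomyocyte markers reached sums of 3003 CPM (Control 1) and 1482 CPM (caIKK2EC 1), and of 89.2 to 182 CPM in the other 6 libraries. Control 2 and Control 3 held 113 and 97.6 CPM of these heart markers, a range shared with caIKK2EC 2 to 5, and their subunit medians of -0.19 and -0.00 lay above those of caIKK2EC 2 to 5. Of 12 skeletal muscle markers Myh4 was at 0 in every library, and the list reached 611 CPM (Control 1), 292 CPM (caIKK2EC 1) and 15.1 to 84.4 CPM elsewhere. The part of adipose and heart tissue in the subunit levels was not tested. In whole tissue, fewer cells of a type and less RNA per cell cannot be told apart.

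Cells of the vessel wall followed other orders. The 8 smooth muscle markers summed to 18335 to 36541 CPM in the Controls, 10062 CPM in caIKK2EC 1 and 13469 to 20857 CPM in caIKK2EC 2 to 5, so that the lowest sum fell in the library with the highest subunit sum. The 9 macrophage markers summed to 2103 to 7141 CPM in the Controls and 8688 to 12235 CPM in all 5 caIKK2EC libraries. The 8 endothelial markers were present in every library, at 1365 to 2759 CPM in the Controls and 2282 to 2960 CPM in caIKK2EC. The T cell list summed to 21.2 to 98.6 CPM, the B cell list to 2.74 to 10.6 CPM and the fibroblast list to 5979 to 10094 CPM over the 8 libraries. Their part in the subunit levels was not tested.

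**Figure D3:**
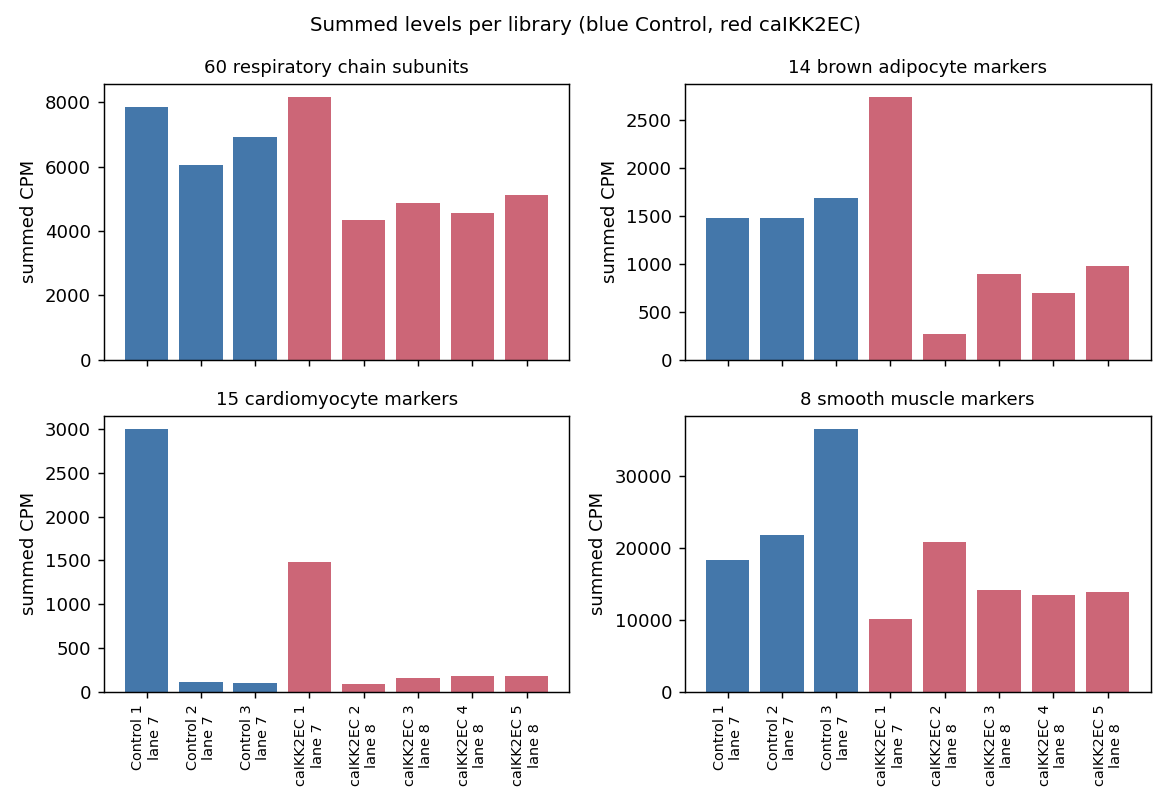
Summed CPM per library of the 60 tested subunit genes and of 3 marker lists (vertical axes from 0, blue for Control, red for caIKK2EC). The subunits and the brown adipocyte markers are both highest in caIKK2EC 1 (8171 and 2743 CPM) and lowest in caIKK2EC 2 (4336 and 272 CPM), while heart markers stand out in Control 1 and caIKK2EC 1.

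Complex I, the entry point of NADH, had 36 tested genes and a median log2 fold change of -0.40, with 13 genes lower at an unadjusted edgeR p under 0.05 (7.47% of all genes). Without caIKK2EC 1 the median was -0.55 with 33 genes lower (8.56% of all genes). The fit with a lane term gave 0.16, with 0 genes lower. Its catalytic core binds flavin and iron-sulfur clusters. Ndufv1, the subunit that binds NADH and flavin, was at 204, 173 and 186 CPM in Control 1 to 3 and 222, 111, 110.2, 102 and 128 CPM in caIKK2EC 1 to 5. Its log2 fold change was -0.48 (SE 0.24, with an adjusted p of 0.339 in edgeR) and -0.72 without caIKK2EC 1. The level in caIKK2EC 1 was the highest of the 8 libraries, and caIKK2EC 2 to 5 lay under all Controls. Ndufs1, the largest subunit and a carrier of iron-sulfur clusters, was at 158, 134 and 105 CPM in the Controls and 189, 72.4, 102, 98.3 and 115 CPM in caIKK2EC 1 to 5. For this gene caIKK2EC 5 lay above Control 3, so that the groups overlapped even without caIKK2EC 1. The core genes Ndufs3, Ndufs7, Ndufs8 and Ndufv2 had log2 fold changes of -0.39, -0.44, -0.27 and -0.32, with adjusted p-values of 0.305 to 0.464. Without caIKK2EC 1 they were -0.55, -0.61, -0.41 and -0.48. For Ndufs7, a subunit of the quinone-binding module, caIKK2EC 2 to 5 were at 68.8 ± 2.84 CPM (SD, n = 4), under the Control range of 94.2 to 128 CPM, and caIKK2EC 1 was at 116 CPM.

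The 4 complex I genes with the smallest p were accessory subunits, which surround the core and are needed for its assembly or stability. Gene positions are given on GRCm38, from GENCODE M21. Ndufa12 (chromosome 10, 94198720 to 94221443, plus strand) was at 34.9, 29.8 and 37.5 CPM in Control 1 to 3 and 32.8, 20.8, 21.1, 17.9 and 22.8 CPM in caIKK2EC 1 to 5. Mean levels were 34.0 ± 3.90 (SD, n = 3) and 23.1 ± 5.70 CPM (SD, n = 5), and the log2 fold change was -0.56 (SE 0.19, with an adjusted p of 0.182 in edgeR), or -0.71 without caIKK2EC 1. Only caIKK2EC 1 reached the Control range. Ndufa11 (chromosome 17, 56717767 to 56722141, plus strand), a membrane subunit, was at 76.8, 54.3 and 78.8 CPM in the Controls and 62.5, 54.5, 47.3, 44.7 and 46.2 CPM in caIKK2EC. Here caIKK2EC 2 lay just above Control 2, and the log2 fold change was -0.45 (SE 0.16, adjusted p = 0.193), or -0.53 without caIKK2EC 1. Ndufb2 (chromosome 6, 39592574 to 39603382, plus strand) was at 43.4, 33.3 and 56.7 CPM in the Controls and 40.0, 29.9, 29.1, 25.6 and 23.4 CPM in caIKK2EC, with the male Control 3 highest. Its log2 fold change was -0.59 (SE 0.20, adjusted p = 0.196) and -0.37 without Control 3, against -0.71 without caIKK2EC 1. Ndufc1 (chromosome 3, 51404677 to 51408988, minus strand) was at 44.6, 35.8 and 40.8 CPM in the Controls and 39.7, 27.0, 27.5, 24.0 and 28.0 CPM in caIKK2EC, with caIKK2EC 1 inside the Control range and the others below it. The remaining accessory genes apart from Ndufa4l2 had log2 fold changes down to -0.59, the value of Ndufb9.

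Complex II has no subunit from mitochondrial DNA, and all 4 of its genes were measured. Sdha, the flavoprotein that oxidises succinate (chromosome 13, 74322254 to 74350280, minus strand), was at 459, 412 and 409 CPM in Control 1 to 3 and 565, 223, 286, 282 and 334 CPM in caIKK2EC 1 to 5. Sdhb, the iron-sulfur subunit (chromosome 4, 140961203 to 140979193, plus strand), was at 190.4, 153 and 142 CPM and 212, 99.2, 113, 104 and 123 CPM in the same order. Both genes were highest in caIKK2EC 1 and below every Control in caIKK2EC 2 to 5. The membrane anchor Sdhc (chromosome 1, 171127165 to 171150603, minus strand) was at 204, 158 and 241 CPM in the Controls and 201, 136, 138, 137 and 147 CPM in caIKK2EC. It was the 1 complex II gene at an unadjusted edgeR p under 0.05, with a log2 fold change of -0.40 (SE 0.18, adjusted p = 0.281), and -0.25 without Control 3, which had the highest level, against -0.51 without caIKK2EC 1. The other anchor, Sdhd (chromosome 9, 50596357 to 50603812, minus strand), was at 186, 142 and 145 CPM in the Controls and 204, 77.1, 118, 102 and 118 CPM in caIKK2EC. The 4 genes shared a pattern: in each of caIKK2EC 2 to 5 all 4 lay below all Controls (7.05% of all genes). In caIKK2EC 1, 3 of 4 lay above all Controls (28.6% of all genes). Their median log2 fold change was -0.34 with all libraries, -0.57 without caIKK2EC 1 and 0.38 with lane as a covariate.

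Complex III, the cytochrome bc1 complex, gave the same picture in all 8 of its genes. In every one of them caIKK2EC 2 to 5 lay below all Controls (7.05% of all genes). In 7 of 8, caIKK2EC 1 lay above all Controls (28.6% of all genes). Uqcrc1, a core protein of the complex (chromosome 9, 108936633 to 108949623, plus strand), was at 335, 268 and 293 CPM in Control 1 to 3 and 354, 164, 184, 185 and 209 CPM in caIKK2EC 1 to 5. The gap between caIKK2EC 1 and caIKK2EC 5 was wider than the whole Control range. Uqcrh, the hinge protein that helps cytochrome c to bind (chromosome 4, 116066965 to 116075071, minus strand), was at 159.6, 109 and 157 CPM and 153, 84.4, 103, 86.7 and 97.7 CPM. It had the smallest p of the complex, with a log2 fold change of -0.44 (SE 0.21, with an adjusted p of 0.323 in edgeR) or -0.60 without caIKK2EC 1, and was the exception in which caIKK2EC 1 stayed inside the Control range. Uqcr11 (chromosome 10, 80402997 to 80406830, minus strand) was at 90.2, 73.5 and 82.2 CPM in the Controls and 94.3, 59.1, 59.9, 50.3 and 62.0 CPM in caIKK2EC, and Uqcrb (chromosome 13, 66900617 to 66905378, minus strand) was at 50.2, 36.6 and 36.2 and 53.1, 23.7, 30.0, 30.1 and 31.7 CPM. Both are small subunits, and both were higher in caIKK2EC 1 than in any Control. Uqcrfs1, the Rieske iron-sulfur protein that passes electrons on, was at 198, 138 and 129.9 CPM in the Controls and 229, 70.3, 109, 95.8 and 110.4 CPM in caIKK2EC. It spanned more than a 3-fold range within the caIKK2EC group, from caIKK2EC 2 to caIKK2EC 1. Uqcrc2, the other core protein, had a log2 fold change of -0.31 (SE 0.27), or -0.57 without caIKK2EC 1. The median of the 8 genes was -0.32, with 0 at an unadjusted edgeR p under 0.05 (7.47% of all genes were lower). It was -0.53 without caIKK2EC 1, where all 8 were under that p (8.56% of all genes), but -0.14 without Control 1 and 0.34 with lane as a covariate.

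Complex IV, cytochrome c oxidase, had 12 tested genes and a median log2 fold change of -0.33, with 2 genes lower at an unadjusted edgeR p under 0.05 (7.47% of all genes). The median was -0.48 without caIKK2EC 1, with 9 genes lower (8.56% of all genes), -0.16 without Control 1 and 0.15 with lane as a covariate. Cox6a1, the form of subunit 6A found in most tissues (chromosome 5, 115345642 to 115348981, minus strand), had the highest level per length of all subunit genes, 371 CPM per kb of annotated exon in Control and 288 CPM per kb in caIKK2EC. Its Control libraries stood at 258, 230.5 and 293 CPM and caIKK2EC 1 to 5 at 285, 169, 188, 174 and 195 CPM. Only caIKK2EC 1 reached the Control range. Cox7a2, the widely expressed form of subunit 7A (chromosome 9, 79755361 to 79759878, minus strand), was at 117, 92.3 and 119 CPM in the Controls and 120.0, 65.6, 74.4, 61.6 and 66.0 CPM in caIKK2EC. Its log2 fold change was -0.50 (SE 0.22, with an adjusted p of 0.279 in edgeR), or -0.70 without caIKK2EC 1. Cox7a2l, which encodes a relative of subunit 7A that joins complexes III and IV into supercomplexes (chromosome 17, 83501918 to 83517330, minus strand), was at 92.0, 70.96 and 81.5 CPM in the Controls and 66.8, 72.8, 69.5, 62.3 and 62.3 CPM in caIKK2EC. Here caIKK2EC 1 lay inside the range of caIKK2EC 2 to 5, and Cox7a2l was 1 of the 4 genes, with Cox7c, Cox6b2 and Ndufa4l2, in which it was not above all of them. Its SD was 4.58 CPM around a caIKK2EC mean of 66.7 CPM, and its log2 fold change was -0.29 (SE 0.11, edgeR adjusted p = 0.235). It was -0.28 without caIKK2EC 1 and -0.29 with lane as a covariate (edgeR adjusted p = 0.583), but -0.17 without Control 1 (edgeR adjusted p = 0.465). The groups overlapped, because Control 2 lay below caIKK2EC 2. Cox8a (chromosome 19, 7215153 to 7217616, minus strand) was at 165, 141 and 204 CPM in the Controls and 183, 117, 129, 113 and 137 CPM in caIKK2EC. Cox5a and Cox5b, which stand next to the catalytic core, had log2 fold changes of -0.34 and -0.38, or -0.62 and -0.59 without caIKK2EC 1, in which both were highest.

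Alternative forms of some subunits had other patterns than most of the genes. Cox6a2, the heart and skeletal muscle form of subunit 6A, was at 47.6, 1.18 and 0.505 CPM in Control 1 to 3 and 23.3, 1.10, 1.37, 1.6 and 1.81 CPM in caIKK2EC 1 to 5. It was high in Control 1 and caIKK2EC 1, which also held the heart markers, such as Myh6, with 902 and 480 CPM there, and low in the other 6 libraries, where Myh6 was at 5.05 to 23.0 CPM. Its log2 fold change of -1.49 had an SE of 1.54 (edgeR adjusted p = 0.668), and was 2.79 without Control 1 and -3.46 without caIKK2EC 1. Cox6b2, a form known from testis, was at 4.19, 4.92 and 3.72 CPM in the Controls and 3.54, 4.63, 2.78, 3.31 and 2.36 CPM in caIKK2EC. Ndufa4l2, a relative of Ndufa4 that is induced by hypoxia, was the gene with a positive log2 fold change, 0.47 (SE 0.26, adjusted p = 0.398), which was 0.43 without caIKK2EC 1 and 0.83 without Control 1. It was at 14.2, 7.69 and 8.12 CPM in Control 1 to 3 and 15.7, 13.0, 8.84, 15.1 and 16.7 CPM in caIKK2EC 1 to 5, and the groups overlapped. Ndufa4, which carries a complex I name but is now assigned to complex IV, was at 209.7, 159 and 164 CPM and 228, 103, 123, 120.4 and 134 CPM in the same order. By their names, Ndufa4 and Ndufa4l2 are both included in the complex I values given here.

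Within a library, the log2 ratio of Ndufa4l2 to Ndufa4 (0.5 CPM added to both) hardly depends on library scaling. The Controls stood at -3.84, -4.29 and -4.25, caIKK2EC 1 at -3.82 and caIKK2EC 2 to 5 at -2.94, -3.73, -2.96 and -2.97. All 5 caIKK2EC ratios lay above all Controls, although caIKK2EC 1 exceeded Control 1 by a narrow margin. The mean difference was 0.84 (exact two-sided permutation p = 0.0357 over 56 splits, of which the smallest possible p is 0.0179). Without caIKK2EC 1 it was 0.97 (exact permutation p = 0.0571), and in 7 of the 8 analyses that leave out 1 library the exact p was above 0.05. Those analyses have fewer splits, so their smallest possible p is higher than 0.0179. The permutation test also treats all 8 libraries alike, although caIKK2EC 2 to 5 came from lane 8 and the others from lane 7. Genotype and lane cannot be told apart by its p.

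**Figure D4:**
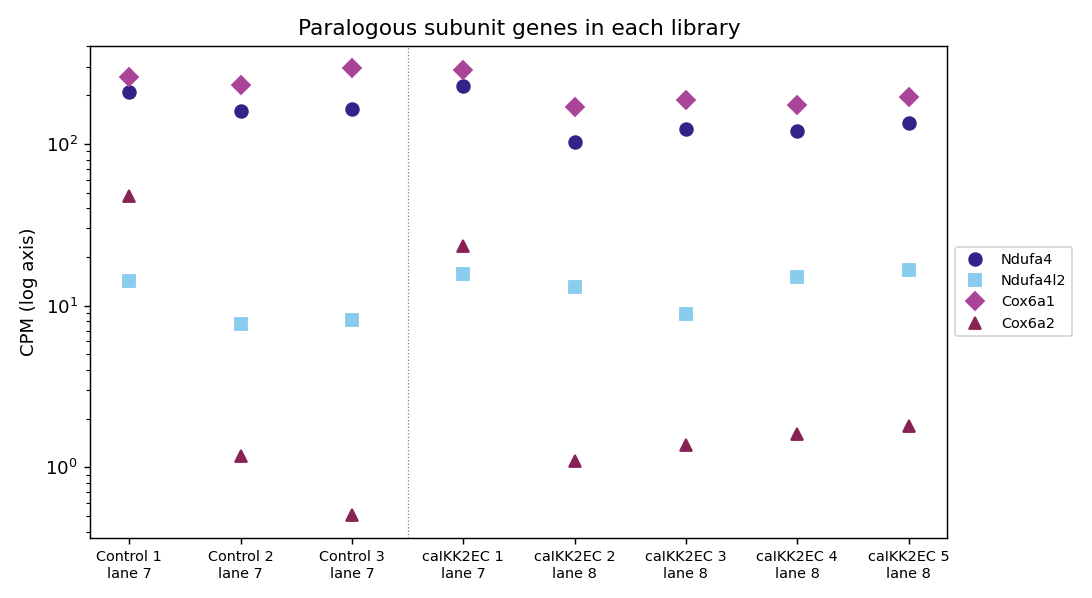
Levels of 2 pairs of paralogous subunit genes in each library (CPM, log axis), with Control left and caIKK2EC right of the dotted line. Cox6a2 is high in Control 1 (47.6 CPM) and caIKK2EC 1 (23.3 CPM) and at most 1.81 CPM elsewhere, while Ndufa4 is lowest and Ndufa4l2 is not in caIKK2EC 2 to 5.

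The subunit genes varied together from library to library. Across the 8 libraries, 37 of 60 genes had a Pearson r above 0.9 with the median of the other subunit genes, 20 had an r from 0.5 to 0.9, and 3 were lower: Cox7c (-0.26), Ndufa4l2 (-0.11) and Cox6b2 (0.39). The share of all genes above 0.9 was not computed, and genes outside the subunits reached an r of 0.987 (Gnas) with the subunit median. These values describe 8 libraries, of which caIKK2EC 2 to 5 came from lane 8 and the others from lane 7. The parts of lane, dissection and scaling in them were not tested. In the 36 tested complex I genes caIKK2EC 2 had the lowest level of 16 genes and caIKK2EC 4 that of another 16. In complexes II and III together caIKK2EC 2 was lowest in 10 of 12 genes.

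Between genes, levels per length in Control ranged from 0.875 CPM per kb (Cox7c) to 371 CPM per kb (Cox6a1). The median was 60.1 CPM per kb for complex I, 87.8 for complex II, 100.1 for complex III and 66.6 for complex IV, and these differences between complexes were not tested. Length here is that of all annotated exons of a gene, which lowers the value of genes with long alternative transcripts such as Ndufb2. Some genes share sequence with copies elsewhere. Of all 50-base stretches of the annotated transcripts of Cox7c, 22.1% also occurred in transcripts of other genes, and it had only 5 to 48 counts in a library. Ndufs5, a complex I subunit of all cells, shared 21.7% with BC002163 and is listed at 0 in every library, from which no level can be read. The 0 counts of Cox8c and Cox7b2, which share no stretch, allow up to 3 counts per library by counting error alone. In 14 of the 63 genes more than 10% of these stretches were shared, among them Uqcrb (25.5%), Ndufa12 (17.7%), Uqcrc2 (17.6%) and Cox7a2l (13.8%). The values of these genes are uncertain, and the share does not measure by how much. In 28 genes, Sdha, Sdhb, Sdhd and Uqcrc1 among them, no stretch was shared.

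The promoters of 4 subunit genes, 1 from each complex, are shown because the genes varied together and because each holds letters known from binding sites of the nuclear factors that drive mitochondrial genes. The sequences are from RefSeq (build GRCm38.p6), run 5′ to 3′ on the strand of the gene, and cover the bases before the RefSeq start that also lie before the GENCODE gene. Capitals mark the letters GCATGCGC, the inner part of sites known for nuclear respiratory factor 1 (NRF1), or the letters CCGGAAG (on the other strand CTTCCGG), known from sites of ETS factors such as GABPA. The windows are chr17:56717512-56717761 (plus strand) for Ndufa11, chr9:50603850-50604099 (minus) for Sdhd, chr4:116075072-116075320 (minus) for Uqcrh and chr5:115348982-115349208 (minus) for Cox6a1.
Ndufa11: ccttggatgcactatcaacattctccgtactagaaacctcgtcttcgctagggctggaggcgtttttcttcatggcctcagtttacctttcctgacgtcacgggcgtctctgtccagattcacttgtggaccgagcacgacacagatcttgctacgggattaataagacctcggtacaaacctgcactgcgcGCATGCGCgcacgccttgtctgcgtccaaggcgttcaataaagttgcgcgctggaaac
Sdhd: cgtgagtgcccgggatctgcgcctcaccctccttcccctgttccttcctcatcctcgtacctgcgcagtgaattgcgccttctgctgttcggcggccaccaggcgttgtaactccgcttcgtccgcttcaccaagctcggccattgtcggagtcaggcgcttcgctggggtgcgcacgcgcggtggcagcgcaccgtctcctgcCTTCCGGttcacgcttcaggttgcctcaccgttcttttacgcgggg
Uqcrh: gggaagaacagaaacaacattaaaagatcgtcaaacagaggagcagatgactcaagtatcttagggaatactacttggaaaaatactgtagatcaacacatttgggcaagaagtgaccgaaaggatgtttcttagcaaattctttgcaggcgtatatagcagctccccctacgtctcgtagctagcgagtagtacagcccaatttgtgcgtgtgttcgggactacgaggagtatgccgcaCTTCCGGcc
Cox6a1: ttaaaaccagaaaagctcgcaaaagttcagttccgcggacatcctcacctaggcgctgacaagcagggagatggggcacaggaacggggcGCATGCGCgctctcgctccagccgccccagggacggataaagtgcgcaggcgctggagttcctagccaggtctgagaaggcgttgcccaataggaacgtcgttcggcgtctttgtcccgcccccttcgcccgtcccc
RefSeq windows were found for 51 of the 63 genes (53 windows). Both strands of the 250 bases before each start were searched. GCATGCGC was in 9.43% of the subunit windows (5 of 53) and in 2.26% of all 32851 windows, and CCGGAAG in 15.1% (8 of 53) and 6.91%. In Ndufa11 and Cox6a1 the match on the other strand overlaps the one in capitals. Cox6a1 also has CCGGAAG on the other strand, 16 to 10 bases before the RefSeq start, in the part not printed. AAGATGGC, letters of YY1 sites, was in 0 of the 53 windows and in 1.56% of all. A match is a description of letters and not of binding. The transcripts of Nrf1 and Gabpa themselves had log2 fold changes of 0.03 and 0.05 (edgeR adjusted p = 0.909 and 0.873), with 24.1 to 28.7 CPM and 41.5 to 52.1 CPM over the 8 libraries.

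Other mitochondrial genes, listed by function, gave the following values in the same fit, with 0 genes passing after adjustment in any of these lists (0% of all genes). For the counts of genes below 0 in these lists, the share over all genes was 52.6%. The nuclear subunits outside the name rule lay with the members: Cyc1, the cytochrome of complex III, had a log2 fold change of -0.55 and Cox4i1, the common form of subunit 4, of -0.41, while Cox4i2, its hypoxia-inducible form, had 0.46. Ndufab1, the acyl carrier protein of complex I, had -0.37 (edgeR adjusted p = 0.633), at 5.15, 4.03 and 3.81 CPM in Control 1 to 3 and 6.18, 2.53, 2.95, 2.06 and 3.04 CPM in caIKK2EC 1 to 5. The list also holds Cycs, the cytochrome c gene, and the muscle and brown fat forms Cox7a1 and Cox8b. Its 7 genes together had a median of -0.41, or -0.70 without caIKK2EC 1 and 0.43 with lane as a covariate. Of 15 tested ATP synthase genes, 15 had a log2 fold change below 0, with a median of -0.37 and 3 lower at an unadjusted p under 0.05 (7.47% of all genes). Citric acid cycle enzymes had a median of -0.37, with 13 of 13 below 0, and fatty acid oxidation enzymes of -0.40, with 11 of 12 below 0. Without caIKK2EC 1 the medians were -0.49 for ATP synthase, -0.62 for the citric acid cycle and -0.81 for fatty acid oxidation, and with lane as a covariate they were above 0, at 0.16, 0.44 and 0.56. Assembly factors stood closer to 0: 11 of 13 for complex I were below 0 with a median of -0.21, and 19 of 27 for complexes II to IV with a median of -0.07. Mitochondrial ribosomal proteins had a median of -0.09 over 77 genes, of which 66 were below 0. At an unadjusted edgeR p under 0.05, 2 were lower (7.47% of all genes). The 13 regulators of mitochondrial biogenesis had a median of 0.01, with 6 below 0. Without caIKK2EC 1 the medians were -0.25 and -0.17 for the assembly factor lists, -0.17 for the ribosome and -0.03 for the regulators, and with lane as a covariate 0.09, 0.18, 0.14 and 0.10. Among them Ppargc1b, a coactivator of mitochondrial genes, was at 17.8, 11.7 and 21.4 CPM in Control 1 to 3 and 18.1, 4.26, 9.01, 9.04 and 9.67 CPM in caIKK2EC 1 to 5, and Ppargc1a, its relative with a main role in brown fat, was at 23.0, 16.6 and 15.9 and 72.7, 3.79, 18.5, 11.6 and 20.9 CPM. Both coactivators were lowest in caIKK2EC 2. The difference between these lists and the subunits was not tested. The 13 genes of mitochondrial DNA on the list were not analysed here.

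**Figure D5:**
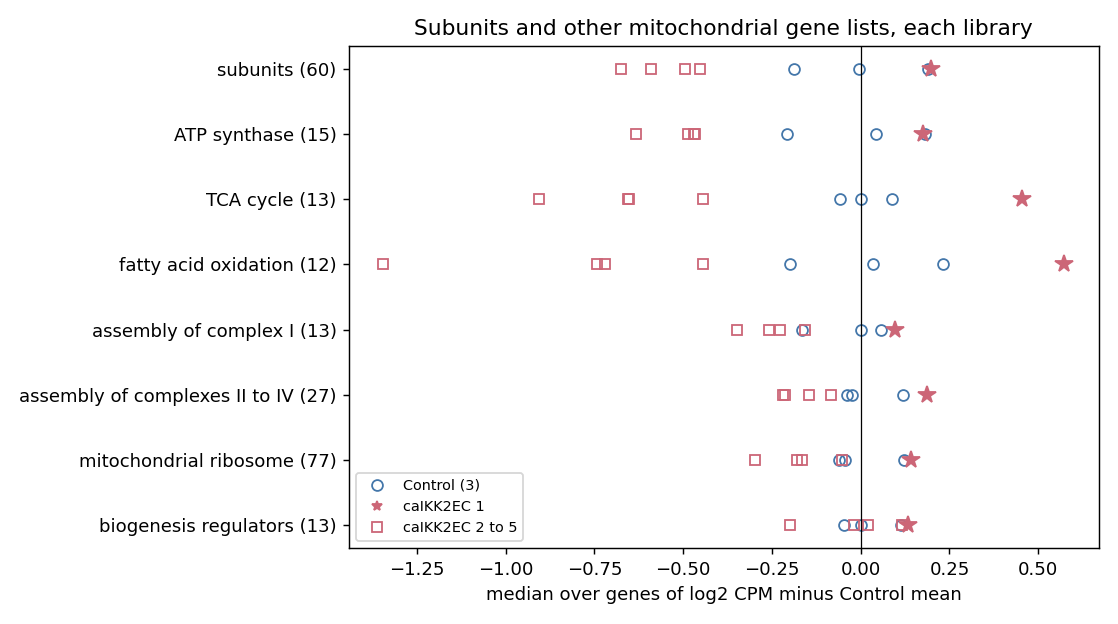
Median over genes of log2 CPM minus the Control mean, per library, for the 60 subunit genes and 7 other lists (number of tested genes in brackets). Libraries caIKK2EC 2 to 5 lie below all Controls for subunits, ATP synthase, citric acid (TCA) cycle and fatty acid oxidation, where caIKK2EC 1 lies at 0.18 to 0.57, and the libraries lie closer together for assembly factors, ribosome and regulators.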

How the data were processed

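Poly(A) RNA of whole aortas was sequenced from directional libraries as single reads, per the labels' protocols. The deposited table holds raw counts per gene symbol. Tools listed in the submitters' processing notes are STAR 2.7.0e, FastQC 0.11.5 and DESeq2 1.22.2, with the build GRCm38 (mm10). The sources used here do not give the counting program, annotation or strand setting, so overlapping, antisense or near-identical genes may share reads. The authors' deposited comparison table gives a log2 fold change, a test score, p-values and normalized values per library as a signal that is never negative, of which fold change and p-values were read.

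The main test was edgeR 4.0.16 (R 4.3.3) on all genes: TMM scaling, default filter on low counts, robust quasi-likelihood fit genotype as its single term, p-values adjusted after Benjamini and Hochberg, threshold 0.05. Standard errors are implied by its F statistic. CPM are TMM-scaled, log2 CPM use a prior count of 2, and the ratio and single-library differences add 0.5 CPM. DESeq2 1.42.0, other scaling, filters, covariates, a replicate block and each library left out were alternatives. Of the count table's names, 27 had been turned into dates, none of a subunit gene, and stayed in the fit. Coordinates, exon lengths and shared 50-base stretches come from GENCODE M21. Each pair of libraries differed by more than sampling noise (lowest chi-square per degree of freedom 17.6, caIKK2EC 4 and 5). The labels give sex and age for each library and nothing about pooling, so the p-values measure the spread between these samples.

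Members and lists were chosen with earlier results of these data known. Named genes were the 4 of smallest p in each complex, core subunits, tissue or oxygen dependent forms, and the extremes of level and fold change; 1 gene of that rule is not reported here. Genes named beside them, such as Ndufa10, Ndufb9 and the single marker genes, were chosen after their values were seen.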

Additional observations from a re-analysis of the deposited data

Results flagged for a closer look

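In 18 of 37 values examined, 1 caIKK2EC library lay farther from the other 4 than chance allows in about 1 of 20 groups (gap to the nearest library over the whole range, above 0.71 for 5 samples). It was caIKK2EC 1 in each case, as the highest library. For the median deviation from Control the share of the range was 0.744 over all subunit genes and 0.847 over complex I. In complex I it was 0.744 for Ndufc1, 0.875 for Ndufs7, 0.811 for Ndufs8, 0.786 for Ndufv1 and 0.751 for Ndufa4. For complex II it was 0.82 for Sdhc and 0.791 for Sdhb. For complex III it was 0.736 for Uqcrh, 0.763 for Uqcrc1, 0.735 for Uqcr11, 0.729 for Uqcrb and 0.748 for Uqcrfs1. For complex IV it was 0.781 for Cox7a2, 0.778 for Cox6a1, 0.79 for Cox5b and 0.968 for Cox6a2. The values are not independent, since the genes vary together and come from the same 5 libraries. The share of all genes above the same limit was not computed, so the count says nothing about subunit genes in particular. The library caIKK2EC 1 was the only caIKK2EC library of lane 7 and had the highest sum of brown adipocyte markers (2743 CPM), and the part of either was not tested.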

How the results depend on the processing

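No subunit gene passed the adjusted threshold in any alternative edgeR fit. In edgeR 0% of all genes passed, both with all libraries and without caIKK2EC 1. DESeq2 was run only with all 8 libraries and genotype as its single term, and called 0 subunit genes. The count lower at an unadjusted p under 0.05 (16) was 10 with age, 3 with sex, 0 with lane as a covariate and 6 with the replicate block, and 2 to 54 with 1 library left out: 2 without Control 1, 3 without Control 3, 54, 10, 7, 3 and 5 without caIKK2EC 1 to 5. The count higher (0) was 1 with lane and 0 to 1 with 1 library left out. With 1 library left out, the genes with all caIKK2EC libraries below all Controls (0) numbered 0 to 50: 50 without caIKK2EC 1, 12 without Control 2, 2 without caIKK2EC 2. Those above (0) numbered 0 to 1. Of all genes, 7.47% were lower at that unadjusted edgeR p with all libraries and 8.56% without caIKK2EC 1. All caIKK2EC libraries lay below all Controls in 3.22% of all genes, and in 7.05% without caIKK2EC 1. For the other fits and left-out libraries these shares are not given, so their counts cannot be set against all genes. The median log2 fold change stayed negative, at -0.55 to -0.22 (-0.31 with the block), and with lane reversed to 0.19 for all, 0.16, 0.38, 0.34 and 0.15 for complexes I to IV. The Ndufa4l2 to Ndufa4 difference was 0.76 to 0.98 with 1 library left out (exact permutation p 0.0476 to 0.143). With lane as a covariate 23 of 31 named genes reversed: Sdha 0.41, Sdhb 0.39, Sdhc 0.0023, Sdhd 0.37, Uqcrh 0.11, Uqcrc1 0.24, Uqcrc2 0.45, Uqcr11 0.20, Uqcrb 0.37, Uqcrfs1 0.56, Cox5a 0.45, Cox5b 0.26, Cox6a1 0.13, Cox6a2 0.50, Cox7a2 0.13, Cox8a 0.11, Ndufs1 0.52, Ndufs3 0.13, Ndufs7 0.13, Ndufs8 0.22, Ndufv1 0.24, Ndufv2 0.22 and Ndufa4 0.36. This fit compares caIKK2EC 1 with the Controls by construction. Control 3 was the only male, so sex as a covariate nearly repeats the fit without Control 3 (Ndufa12 at -0.49 in both). Cox7c was 0.054 with age, and with 1 library left out Cox7c ranged from -0.47 to 0.41 and Cox6a2 from -3.46 to 2.79. The cause was not tested.

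The replicate numbers give no pairing: over all genes the deviations of same-numbered libraries correlated at 0.335, 0.099 and 0.097 for numbers 1 to 3. Each library correlated best with its own number, a hint from the data and not from the design. Depth limits Cox7c and Cox6b2, the tested genes of lowest level. It also limits Cox6a2 outside Control 1 and caIKK2EC 1, with 11 to 56 counts in each other library.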

Other observations

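Genes that respond to low oxygen, a list that includes Ndufa4l2 and Cox4i2, had a median log2 fold change of 0.13 over 10 tested genes. Of these, 8 were above 0, as were 6955 of all 14679 genes. At an unadjusted edgeR p under 0.05 there were 0, where 7.47% of all genes were lower and 9.66% higher. Egln3, an oxygen-sensing hydroxylase gene, was at 12.1, 10.3 and 11.5 CPM in Control 1 to 3 and 16.5, 10.7, 8.07, 24.2 and 20.5 CPM in caIKK2EC 1 to 5. Cox4i2 was at 5.04, 4.07 and 4.22 CPM in the Controls, 3.77 CPM in caIKK2EC 1 and 5.60, 6.15, 6.87 and 8.05 CPM in caIKK2EC 2 to 5, all 4 of which lay above the Controls.

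Outside the subunits, the 5 genes whose log2 level over the 8 libraries was most like the median of the subunit genes, among 10256 genes, were Gnas (Pearson r = 0.987), Gpx4 (0.983), Ldhb (0.982), Atp5j2 (0.982) and Acsf2 (0.981). These correlations are a description of 8 libraries from lanes 7 and 8, and the part of lane in them was not tested.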
